A study of Arabidopsis thaliana with 4 samples.

Results

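The cytochrome b6f complex sits in the thylakoid membrane and passes electrons from plastoquinol, the carrier loaded by photosystem II, to plastocyanin, the donor of photosystem I, while it moves protons into the thylakoid lumen. In plants most of its subunits are encoded in the plastid genome, in the pet genes, and the others in the nucleus. Cytochrome f needs haem that is attached on the lumen side of the membrane, and CcdA, a nuclear-encoded thylakoid protein, carries reducing power across the membrane for that step. The genes described here are the plastid genes petA, petB, petD, petG, petL and petN and the nuclear gene CcdA (AT5G54290, on chromosome 5). They were chosen as the probe sets whose only gene in the platform's probe annotation is one of these 7. All 7 were found, each with 1 probe set, among 22746 probe sets tested, and the 6 pet genes are among 69 plastid-encoded genes measured in this way.

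The samples were whole seedlings of Arabidopsis thaliana, ecotype col-0, harvested at 10 days of age without any treatment. Of the 4 arrays (Affymetrix ATH1), 2 were made from wild type seedlings and 2 from OsRR6ox seedlings, which carry a transgene that over-expresses OsRR6, a rice type-A response regulator of the cytokinin pathway. The design text speaks of a single over-expression line, the labels do not name the promoter of the transgene, and the transgene has no annotated probe set here. The labels call the replicates biological but do not say that they were grown apart, so each p-value reflects only how these samples vary. All values are the deposited log2 expression values, on which a difference of 1 is a doubling.

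Array medians lay between 6.71 and 6.81. The photosynthetic shoot markers measured (3 of 12 listed) and the root markers measured (4 of 8) lay above the lowest 25% of probe sets on every array. The seed markers measured did so too, so this criterion does not show that an organ was present. The summed signal of the shoot list on the log2 scale was 14.61 to 14.81 for wild type and 14.66 to 14.87 for OsRR6ox. For the root list it was 13.05 to 13.07 against 12.87 to 13.00. Signals were added before taking the log, so the root sum mostly follows its brightest marker, PYK10. That gene read 12.96 and 13.00 against 12.71 and 12.84, while the median difference of the 4 root markers was 0.46. For the seed markers measured (2 of 5) it was 6.38 to 6.62 for wild type and 5.84 to 6.18 for OsRR6ox. Single markers differed in both directions. Of the root markers, the root hair expansin gene EXPA7 rose by 1.39 (limma adjusted p = 0.0392), while EXPA18 differed by 1.11, PYK10 by -0.21 and NAI1 by -0.19 without passing. Of the shoot markers LHCB4.2 differed by 1.20, LHCB4.1 by 0.17 and RCA by -0.38, and none passed. The part of organ proportions in the results below was not tested, and in whole seedlings fewer cells of a type and less RNA per cell cannot be told apart.

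The design sets the over-expressing seedlings against the wild type to find the transcripts that change with OsRR6. Among these 7 genes petN fell and CcdA rose. The petN transcript was 4.27-fold lower (95% interval 2.81 to 6.48) and the CcdA transcript 3.56-fold higher (2.35 to 5.38) in OsRR6ox. petD had the widest difference of all, 5.72-fold lower, but its wild type arrays lay far apart and it narrowly missed the threshold. The remaining pet genes had lower means in OsRR6ox as deposited and did not pass. The 2 calls among 7 stand beside 1.30% of all probe sets called (limma, Benjamini-Hochberg adjusted p under 0.05 over all 22746). The 7 genes were chosen with earlier results of these data known, so this comparison cannot show that they are enriched in calls. By direction, 0.813% of probe sets were called higher, as CcdA was, and 0.488% lower, as petN was. At an adjusted p under 0.1, which 2.96% of probe sets met, petD and petL joined them.

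**Figure D1:**
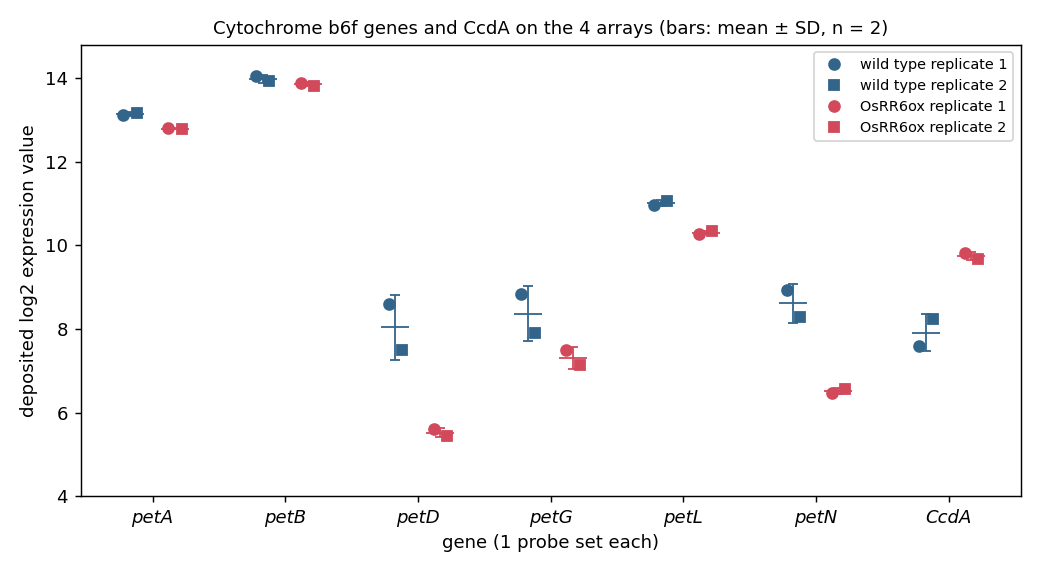
Deposited log2 expression values (vertical axis) of the 7 genes (horizontal axis) on the 2 wild type arrays (blue) and the 2 OsRR6ox arrays (red), with circles for replicate 1, squares for replicate 2 and bars for the mean ± SD (n = 2 each). The OsRR6ox points of petD and petN lie at least 1.72 below the nearest wild type point, and those of CcdA lie 1.45 above, while petA and petB barely move.

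The genes petA and petB, for large subunits that bind haem, were bright and differed little. petA encodes cytochrome f, the c-type cytochrome that hands electrons to plastocyanin. The wild type arrays read 13.11 and 13.18, the OsRR6ox arrays 12.80 and 12.79. The groups did not overlap, and the difference was -0.35 (95% interval -0.66 to -0.05, limma adjusted p = 0.279). petB encodes cytochrome b6, which holds the b-type haems in the membrane. Wild type arrays gave 14.05 and 13.92 and OsRR6ox arrays 13.89 and 13.82, so that the genotypes nearly touched. The difference was -0.13, with an interval of -0.45 to 0.19 (limma adjusted p = 0.710), which leaves room for a fall of up to 1.37-fold. When arrays were centred on the spike-in controls, the signs of petA and petB turned to 0.18 and 0.40, and neither passed there. These controls are 42 probe sets for bacterial and phage sequences, pooled here as a single set. Their mean was 8.80 for wild type replicate 1 and 9.13 for wild type replicate 2, so it differed within that genotype as well. For OsRR6ox it was 8.45 in replicate 1 and 8.43 in replicate 2. The part of this spread in the turned signs was not tested. On every array petB was brighter than at least 99.96% of probe sets and petA brighter than at least 99.54%, a range in which probe signals can level off. Whether that held these differences down was not tested.

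petD encodes subunit IV, which with cytochrome b6 forms the core of the membrane part. Its level was 8.59 and 7.49 on the wild type arrays but 5.60 and 5.45 on the OsRR6ox arrays. Both OsRR6ox values were well below both wild type values, but the wild type arrays themselves stood 1.09 apart, the widest such gap among the 69 plastid-encoded genes. The difference was -2.52 ± 0.36 (standard error, limma), with an interval of -3.44 to -1.59 and an adjusted p of 0.0560. Without wild type replicate 1 the difference was -1.97 and passed (limma adjusted p = 0.0175), and without wild type replicate 2 it was -3.06 and passed as well (limma adjusted p = 0.00549). Those fits assume that the lone wild type array varies like the OsRR6ox arrays. On the wild type arrays petD was brighter than 77.8% and 61.5% of all probe sets, and on the OsRR6ox arrays than 37.3% and 36.3%, a ranking that no scaling of whole arrays can change.

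petN, petG and petL encode small membrane-spanning subunits at the rim of the complex. In tobacco, petN and petG are needed for a stable complex, whereas petL is dispensable. petN, also known as ycf6, stood at 8.94 and 8.28 on the wild type arrays and at 6.47 and 6.56 on the OsRR6ox arrays. The OsRR6ox arrays agreed closely and lay below both wild type arrays. The difference was -2.09 ± 0.24 (standard error, limma adjusted p = 0.0325). In rank petN went from above 82.4% and 74.3% of probe sets in the wild type to above 46.2% and 47.8% in OsRR6ox. The call needed both OsRR6ox arrays. It was lost without replicate 1 or replicate 2 of that genotype, where the difference stayed at -2.05 or -2.14. Those fits assume that the lone OsRR6ox array varies like the wild type arrays, and fewer of all probe sets passed there too.

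For petG the wild type arrays gave 8.83 and 7.90 and the OsRR6ox arrays 7.49 and 7.13. The lower wild type value and the higher OsRR6ox value were only 0.41 apart. The difference of -1.06 (interval -1.90 to -0.21, limma adjusted p = 0.247) ranged from -0.59 without wild type replicate 1 to -1.52 without wild type replicate 2, where it passed (limma adjusted p = 0.0423). petL was far more even, with wild type values of 10.96 and 11.05 and OsRR6ox values of 10.27 and 10.33. Its difference of -0.70 had the narrow interval of -1.02 to -0.39, and at an adjusted p of 0.0860 (limma) it did not pass over all probe sets. After spike-in centring petL differed by only -0.17 and petG by -0.53.

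CcdA differed in the opposite direction. The protein is related to bacterial proteins of cytochrome c maturation and works with the thioredoxin-like protein HCF164, which has no probe set with a single gene name here. Its level was 7.59 and 8.23 on the wild type arrays but 9.81 and 9.68 on the OsRR6ox arrays. Both OsRR6ox arrays were above both wild type arrays, by 1.45 at the closest, a lack of overlap that 18.1% of probe sets shared in this direction. The rise was 1.83 ± 0.23 (standard error, limma adjusted p = 0.0439), which placed CcdA at rank 90 of 22746 by size of rise. It moved from above 61.8% and 73.6% of probe sets to above 90.9% and 89.9%. As for petN the call was lost without either OsRR6ox array, at 1.77 without replicate 1 and 1.90 without replicate 2. The same assumption about the lone OsRR6ox array holds for these fits, in which fewer of all probe sets passed.

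**Figure D2:**
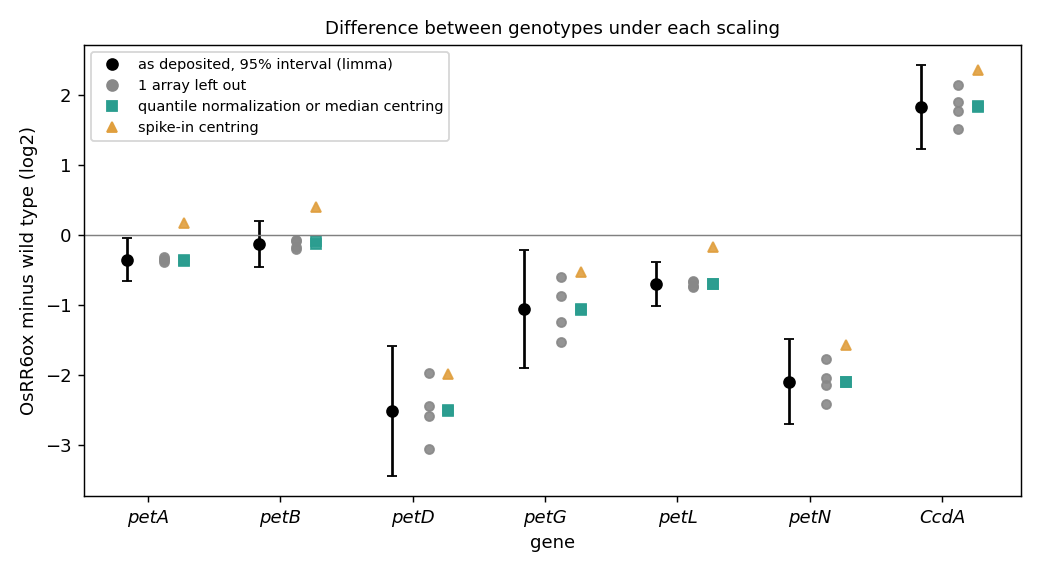
Difference between genotypes, OsRR6ox minus wild type on the log2 scale (vertical axis), for each gene (horizontal axis), as deposited with its 95% interval (black), with each array left out in turn (grey), after quantile normalization or median centring (green) and after spike-in centring (orange). petD and petN stay below -1.5 and CcdA above 1.5 throughout, whereas the spike-in points of petA and petB lie above 0.

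The 6 pet genes had a median difference of -0.88, against -0.39 for all 69 plastid-encoded genes and -0.04 for all probe sets. All 6 had groups of arrays that did not overlap, with OsRR6ox lower (so had 28.0% of all probe sets and 49 of the 69 plastid-encoded genes), and a lower mean alone was met by 57.7% of all probe sets. 1 of the 6 fell and 0 rose (limma), while 5 of the 69 plastid-encoded genes fell and 0 rose. Over all probe sets 0.488% were called lower. Unadjusted p was under 0.05 for 5 of the 6, as for 15.0% of all probe sets. Within the plastid genome the spread among the pet genes was wide. By size of fall petD held place 3 and petN place 4 of 69, after rps14 and ndhF, while petG held place 7, petL 20, petA 37 and petB 55.

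Differences within an array are free of any shift of a whole array, so petD and petN were also read against the other plastid-encoded genes of the same array. petN less the median of those genes gave -2.68 and -3.42 for wild type and -4.94 and -4.88 for OsRR6ox, a difference of -1.86 ± 0.37 (SE over arrays, n = 2 each, exact permutation p = 0.333, two-sided). petD less that median gave -3.03 and -4.21 for wild type and -5.81 and -6.00 for OsRR6ox, a difference of -2.28 ± 0.60 (SE over arrays, n = 2 each, exact permutation p = 0.333). CcdA less the median of all probe sets was 0.79 and 1.52 against 3.04 and 2.93, a difference of 1.83 ± 0.37 (exact permutation p = 0.333, n = 2 each). With 2 arrays against 2 a p of 0.333 is the smallest that 6 orderings allow, so these tests could not pass. The 7 genes were chosen with earlier results of these data known. petA, petB, petG and petL were read this way after their values were seen. petA and petB changed by -0.10 ± 0.05 and 0.12 ± 0.13 relative to the plastid median (SE over arrays, n = 2 each). Relative to the plastid mean they changed by 0.17 and 0.40, so neither had a clear deficit against the plastid genes at large. petG changed by -0.82 ± 0.55 relative to the median and -0.54 relative to the mean, and petL by -0.47 ± 0.01 and -0.18. Against the mean petN changed by -1.59 and petD by -2.02.

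Plastid genes are transcribed in clusters, and the pet genes lie in several of them. petB and petD are neighbours at the end of the psbB cluster, which is made as a long precursor RNA and then cut and spliced. Subtracting petB from petD array by array gave -5.46 and -6.43 for wild type and -8.30 and -8.36 for OsRR6ox. Such a value mixes probe brightness with transcript level and only its change can be read, which was -2.39 ± 0.48 (SE over arrays, n = 2 each, exact permutation p = 0.333, the smallest possible). The petB probe set lies where probe signals can level off, and how far that affects this change was not tested. The other genes of that cluster stayed closer to petB. psbH, which precedes petB and encodes a small photosystem II subunit, differed by -0.18, psbB, for the CP47 antenna, by -0.32, psbT by -0.80 and psbN, which is read from the opposite strand, by -0.28. rpoA, for a subunit of the plastid RNA polymerase and next after petD, differed by -0.46. The measured genes on both sides of petD thus had smaller differences than petD itself.

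petL and petG head another cluster with psaJ, rpl33 and rps18. psaJ, for a small photosystem I subunit, gave 12.78 and 12.72 for wild type and 11.98 and 12.06 for OsRR6ox, a difference of -0.74 beside -0.70 for petL. The ribosomal protein genes rpl33 and rps18 differed by -0.45 and -0.47. The petG value less the petL value changed by -0.36 ± 0.55 (SE over arrays, n = 2 each), so the gap between these neighbours was smaller than its error. petA ends a cluster with psaI, ycf4 and cemA, and accD lies before them. Here accD, for a subunit of acetyl-CoA carboxylase, differed by -0.75 and psaI by -0.58, while ycf4 and cemA, at -0.26 and -0.28, were near petA. petN lies next to psbM in gene order. psbM, a photosystem II gene, read 12.93 and 13.61 against 13.44 and 13.41, overlapped between genotypes and differed by 0.15. petN less psbM changed by -2.25 ± 0.67 (SE over arrays, n = 2 each). Of the 13 neighbours listed, 0 passed in either direction (limma), 12 had lower means in OsRR6ox as deposited and 6 had an unadjusted p under 0.05. Of all 69 plastid-encoded genes 58 and 35 did, and of all probe sets 57.7% and 15.0%, so the counts of the neighbours were close to those of plastid genes at large. Except for the pair of petD and petB, these neighbour differences were computed after the values were seen and were not tested.

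**Figure D3:**
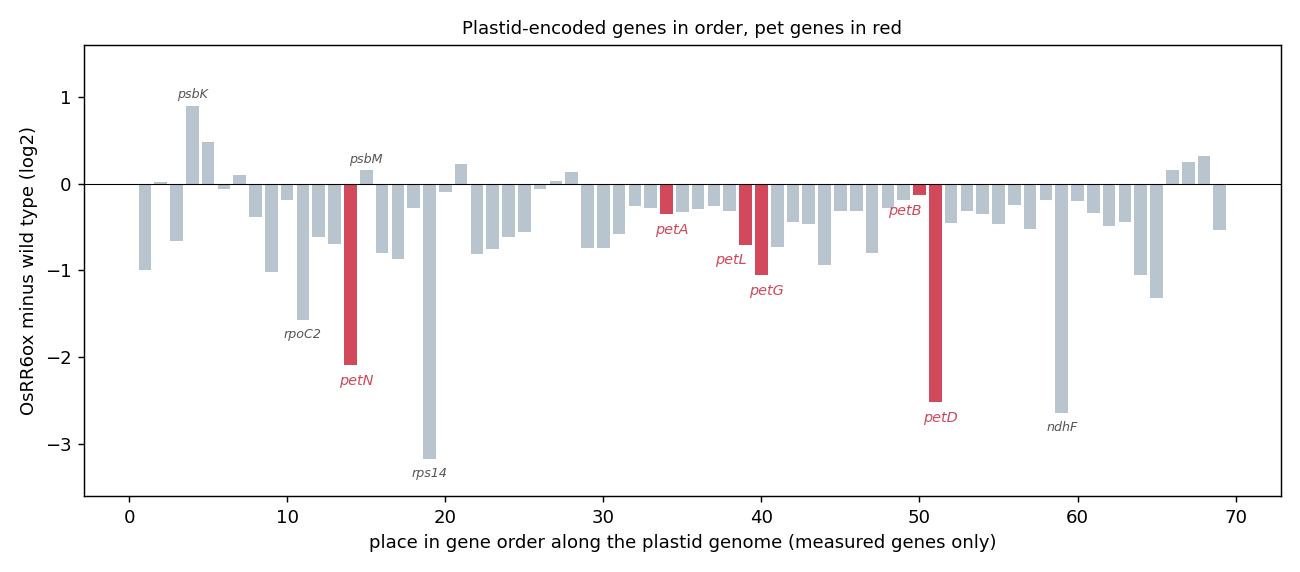
Difference between genotypes, OsRR6ox minus wild type on the log2 scale (vertical axis), of the 69 measured plastid-encoded genes in their order along the plastid genome (horizontal axis), with the pet genes in red. petN stands between rpoB at -0.69 and psbM at 0.15, petD between petB at -0.13 and rpoA at -0.46, and petL and petG between psbE at -0.32 and psaJ at -0.74.

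Brightness and difference went together across the plastid genes. Ranked by mean signal over the 4 arrays, petB held place 2 and petA place 11 of 69, petL place 45, and petG, petN and petD places 61, 62 and 66. The 11 plastid-encoded genes with a mean below 9 had a median difference of -1.06 and the other 58 a median of -0.32. Over the 69 genes Spearman's rho between mean signal and difference was 0.57. It is given as a description, since the genes share the same 4 arrays and are not independent. The mean, also used for the limit of 9, includes the OsRR6ox arrays, so a fall itself moves a gene toward the dim end. Signal on this array depends on the probes as well as on the transcript. The share of brightness in the pattern among the pet genes was not tested.

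**Figure D4:**
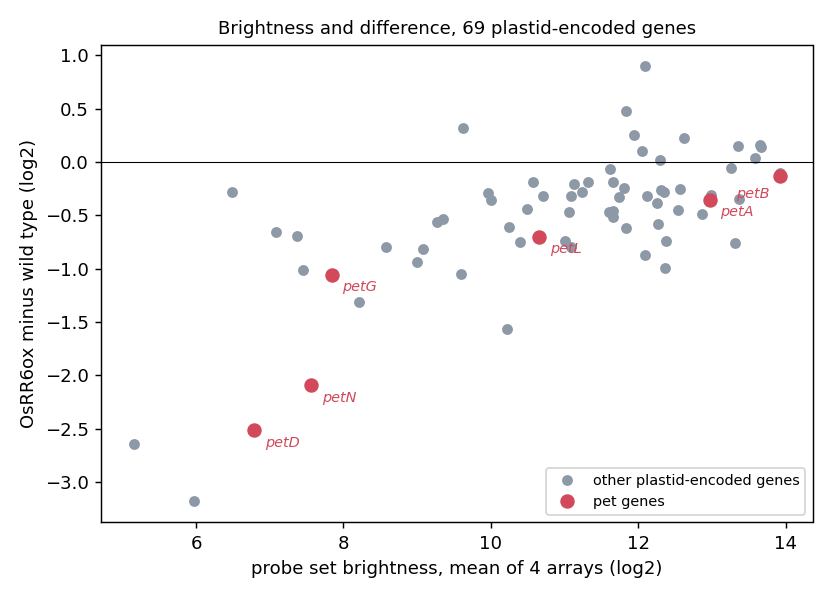
Mean log2 signal of the 4 arrays (horizontal axis) against the difference between genotypes on the log2 scale (vertical axis) for the 69 plastid-encoded genes, 1 point each, with the pet genes in red. The bright petA and petB lie near 0, petL lies between, and petN and petD lie at the dim end among the 4 genes with a difference below -2.

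The wild type arrays were not alike for these genes. petD, petG and petN were higher in wild type replicate 1 than in replicate 2, by 1.09, 0.93 and 0.65, and CcdA was lower there, with a gap of -0.64. By the size of this gap petD held place 1, petG place 5 and petN place 8 of the 69 plastid-encoded genes. Wild type replicate 1 exceeded replicate 2 in 26 of the 69 and in all 4 whose difference between genotypes was below -2, which were rps14, ndhF, petD and petN. The OsRR6ox arrays lay closer, with gaps of 0.14 for petD, -0.09 for petN, 0.37 for petG and 0.13 for CcdA.

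Plastid messenger RNAs mostly lack the long poly(A) tails that this kind of labelling starts from, so their signal can vary with the make-up and length of the RNA. For the 25S ribosomal RNA control the wild type arrays gave 7.41 and 9.94 and the OsRR6ox arrays 6.45 and 7.41, so that the genotypes met. For the 5S control they gave 5.59 and 4.88 against 3.73 and 3.74, the latter within the lowest 25% of probe sets, and the genotypes did not overlap. The gap between the 3′ and 5′ probe sets of the ubiquitin control was 1.83 and 1.77 for wild type and 1.21 and 1.25 for OsRR6ox. Of the wild type samples replicate 1 had the higher 5S value, as it had the higher petD, petG and petN values, and the lower 25S value. The part of these controls in the lower pet values was not tested.

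The nuclear side of the complex was thinly covered. Lists drawn up by locus code for its nuclear subunits, its assembly and haem attachment, the RNA-binding factors of pet transcripts, its electron transfer partners and thylakoid thiol exchange held 37 nuclear genes, of which 8 were measured under a single gene name, and the plastid gene ccsA. Of the 8 nuclear genes 0 rose and 0 fell (limma), where 1.30% of all probe sets were called, and 3 had an unadjusted p under 0.05, where 15.0% of all probe sets had. All 8 had lower means in OsRR6ox as deposited, as had 57.7% of all probe sets, with a median difference of -0.27. AT2G26500, the measured locus of 2 in the list of nuclear subunits, gave 13.18 and 13.17 for wild type and 12.78 and 12.27 for OsRR6ox, a difference of -0.65 (limma adjusted p = 0.233). The Rieske iron-sulphur protein gene, the other in that list, was not measured under a single gene name.

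Of the assembly and haem list 3 of 9 were measured. ccsA, a plastid gene for part of the system that attaches haem to cytochrome f, differed by -0.34 (interval -0.70 to 0.01), and CCB3, which acts in haem binding to cytochrome b6, by -0.20 (interval -0.56 to 0.16). Neither passed, and their difference from CcdA was not tested. In the list of RNA factors, 2 of 8, AT5G42310 differed by -0.39 and CAF1, a factor of plastid intron splicing, by -0.03. Among the electron transfer partners, 2 of 13, CYTC6A, a cytochrome c6-like protein of the lumen, differed by -0.71 and PGRL1B, of cyclic electron flow, by -0.35. The thioredoxin gene ATHM2, 1 of 7 in the thiol list, differed by -0.07. With so few members measured, the lack of calls does not show that these groups were unchanged.

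Genes with values most like those of petN, petD and CcdA were sought among 1621 genes with a symbol, by the root mean square distance over the 4 arrays after each gene's wild type mean was taken off. Nearest to petN were CW9, of the NBS-LRR resistance class, at 0.30, the plastid NDH gene ndhF at 0.39 and the plastid RNA polymerase gene rpoC2 at 0.52. Nearest to petD were ndhF at 0.19, CW9 at 0.50 and the plastid ribosomal protein gene rps14 at 0.56. CcdA was nearest to DI21 at 0.21, to a probe set of the mitochondrial gene nad1 at 0.25 and to the ubiquitin ligase gene LUL1 at 0.34. DI21 gave 7.83 and 8.40 for wild type and 9.61 and 9.96 for OsRR6ox, with the lower value in wild type replicate 1 as for CcdA.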

How the data were processed

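The deposited table holds the authors' log2 expression values for 22810 probe sets on 4 arrays. Per the labels' protocols, Trizol-extracted total RNA was biotin-labelled by the 3′ IVT method, and the submitters' processing notes name R 3.4.0. Background correction, summarisation and normalization were not given in the sources used here. The 64 array controls stayed out of the tests, which left 22746 probe sets. Genes came from the platform annotation, updated through gene identifiers to a TAIR10.1 table. Of these, 13513 have a single gene, 503 have several, and 8730 are unnamed here.

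Genotypes were compared on the deposited values by limma (version 3.58.1, R 4.3.3; lmFit, eBayes, two-sided), with Benjamini-Hochberg adjustment over all 22746 and a threshold of 0.05. The fit was tested on simulated data. Array number limits precision, with a median residual SD of 0.145. Within-array differences were tested by exact permutation over arrays. Array by array, the lowest 25% of probe sets were taken as background, and none of the 7 genes lay in it on any array. Members, lists and the rule for named genes (all members, listed genes past the threshold or with the 2 smallest p, and the 3 nearest patterns) were chosen with earlier results of these data known. Alternatives were quantile normalization, median centring, centring on 42 spike-in controls, a filter on dim probe sets, other variance models, the replicate number as a block, a looser threshold and leaving out each array.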

Additional observations from a re-analysis of the deposited data

How the results depend on the processing

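Over all probe sets 296 passed as deposited, 492 after median centring, 3013 after spike-in centring, 105 with the replicate number as a block, 673 at an adjusted p under 0.1, and 45 to 465 with 1 array left out. Spike-in centring moved the median of all probe sets from -0.04 to 0.49 and the rises among the calls from 185 of 296 to 2863 of 3013, with a common SD of 0.294 for all probe sets, so that count is not comparable with the 296. The sign of petA (0.18) and petB (0.40) turned there. The number of the 7 genes called was 2 as deposited, 4 at an adjusted p under 0.1 and 0 to 4 with 1 array left out. Among the fits with 1 array left out it was lowest without OsRR6ox replicate 1 or replicate 2 and highest without wild type replicate 2. petD passed after quantile normalization (limma adjusted p = 0.0377), median centring, spike-in centring, the filter on dim probe sets and with an intensity trend. Except with the replicate block or an OsRR6ox array left out, petN and CcdA passed under every alternative run. The cause of these shifts was not tested.

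The replicate numbers are not stated to mark a shared batch, and same-numbered arrays deviated together with a correlation of 0.26 across probe sets. With the replicate number as a block 0 of the 7 genes passed (limma). There petN and petD each had a limma adjusted p of 0.0759 and CcdA one of 0.0918. The change of petD less petB was -2.39 (exact permutation p = 0.5, the smallest possible). The within-array differences of petN, petD and CcdA, and that of petD less petB, kept their direction under each alternative run. Leaving out 1 array could not have turned them, since their wild type and OsRR6ox values do not overlap. The replicate block leaves a difference of means unchanged by construction.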
